A study of Rattus norvegicus with 6 samples.

Results

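The array held 24684 probes that were not controls, and 2242 of them carried a transcript identifier from outside the RefSeq classes of coding and non-coding RNA. These probes were taken by the form of their identifier alone, leaving out identifiers that began with NM_, XM_, NR_, XR_, MR, uc., CUST or A_, so no measured value chose them. They are called here the probes outside RefSeq, and the 15323 probes with NM_ or XM_ identifiers, called the RefSeq coding probes, served as the comparison. The study compared pancreas tissue from control rats with pancreas tissue from rats labelled AP, acute pancreatitis. All animals were 6-week-old males, and no strain is named in the labels. In the AP group 4% sodium taurocholate, a bile salt that injures acinar cells, was run backwards through the pancreatic duct at 1 mL/kg and the tissue was taken 9 h later. The labels do not say whether control rats had a sham infusion, so the surgery and the bile salt cannot be told apart. RNA depleted of ribosomal RNA was amplified with random primers and hybridised, in 1 colour (Cy3), to a long non-coding RNA and mRNA array, with 3 scans deposited for each group.

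RefSeq is a curated collection in which each transcript is reduced to a reference record, while GenBank and its partner archives in Europe and Japan keep every sequence as it was submitted. A probe that carries an archive accession thus names a single submitted sequence and not a reference transcript. Accessions that begin with BC are full-length cDNA clones of the Mammalian Gene Collection, a project that sequenced clones in bulk. Most of the other 2-letter prefixes and of the older 1-letter prefixes are direct submissions, such as cloned cDNAs, splice forms and fragments, beside some expressed sequence tags, patent sequences and records entered from journal articles. The files give no gene name and no sequence for these probes, and 0 of the 2242 identifiers matched the RefSeq gene table, so each is named here by its accession and its gene is not stated.

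The probes outside RefSeq comprised 912 with a 2-letter accession other than BC, 861 with a BC accession and 460 with a 1-letter accession. A further 6 were tentative consensus sequences of a gene index and 3 were Ensembl transcripts. Of the 2242 probes, 2225 were printed as 3 spots and 17 as 10 spots, while 15283 of the RefSeq coding probes were printed once. Spots of a probe were averaged, so a value outside RefSeq usually rests on 3 readings and a coding value on 1. The median SD between the log2 signals of a detected probe's spots ran from 0.124 to 0.163 across the 6 scans.

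The deviations of replicate spots from their probe mean correlated at 0.993 between control scans 2 and 3 and at 0.994 between AP scans 2 and 3. The other 13 pairs of scans lay between 0.22 and 0.75, over 1098 spots of 366 probes, and the paired scans also carried the same array slot. Each such pair was taken as 1 array scanned in 2 sessions and averaged, which left 2 arrays per group (control 1, control 2, AP 1 and AP 2) and 2 residual degrees of freedom. The labels state that RNA came from each rat, but they do not name the rat behind an array, so p-values measure only the spread between these arrays. All arrays lay on 1 slide, with slots 1 and 2 holding controls and slots 3 and 4 holding AP arrays, so slot and group cannot be told apart. The 75th percentile of the signal was 140 to 147 on control scans and 70.1 to 77.7 on AP scans, and every log2 signal below is given relative to that percentile of its own scan. Marker genes on RefSeq probes went against the labels, since 9 of 10 inflammation genes were lower on the arrays labelled AP and their summed signal was 8.75 to 9.24 times the percentile there against 422 to 428 times in controls. Tnf was the exception and was higher, a call lost after quantile normalization and turned to lower without scaling. Lymphocyte genes were higher for 7 of 7 tested on the arrays labelled AP, with summed signals of 31.6 to 33.0 against 2.11 to 2.70, and Cd79b, a subunit of the B-cell receptor, and Ccr7 were among those at background on every control scan, with Ccr7 at background on the AP scans too. Acinar genes were higher for 6 of 9 tested, with 0 lower by limma at either an adjusted or an unadjusted p below 0.05, and their sums were 53.4 to 63.6 against 44.9 to 46.0, but without scaling 0 were higher and 3 lower. Summed adipocyte genes were 10.2 to 10.4 against 305 to 323 in controls, with 3 of 5 lower. Erythroid genes summed to 29.3 to 30.0 against 634 to 733, with 4 of 5 lower and 1 higher. Of the tested neutrophil genes 2 of 4 were lower and 1 higher, of the islet genes 2 of 3 were lower, and of the duct genes 2 of 2. Directions below follow the labels as deposited, and the part that these cell types have in the results was not tested. In whole tissue, fewer cells of a type and less RNA per cell cannot be told apart.

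Probes outside RefSeq were detected less often than coding probes. A probe was counted as detected on a scan when the scanner software marked its signal as well above background, and it was tested when this held on at least 3 of 6 scans. On the 3 control scans 57.0%, 47.2% and 44.9% of the probes outside RefSeq were detected, against 70.1%, 63.3% and 61.6% of the coding probes. On the 3 AP scans the shares were 38.4%, 40.9% and 39.4%, against 52.2%, 53.9% and 52.0%. Every scan therefore gave the lower share for probes outside RefSeq, and the AP scans lay below the control scans in both classes. Over all scans 1065 of the 2242 probes (47.5%) were tested, and 773 of these were detected on all 6 scans and 292 on 3 to 5. Another 283 were detected on 1 or 2 scans and 894 (39.9%) on none, against 26.9% of the coding probes on none.

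The gap in detection went with a lower signal. In controls the median log2 signal of the probes outside RefSeq was -2.65, -3.37 and -3.47, and in AP it was -2.97, -2.77 and -2.80. Coding medians were -1.56, -1.76 and -1.78 in controls, then -1.64, -1.58 and -1.58 in AP. When coding probes were weighted to the same distribution of mean signal, 48.2% of them were detected, close to the 47.5% outside RefSeq. The mark is itself set by signal, so this closeness was largely fixed in advance. Detection confined to 1 group was not alike in the classes, since 39 probes outside RefSeq (1.74%) were detected on all AP scans and no control scan, against 69 coding probes (0.450%). The reverse pattern, all control scans and no AP scan, held for 149 probes outside RefSeq (6.65%) and 1127 coding probes (7.35%).

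More probes outside RefSeq were higher than lower on the arrays labelled AP, and the coding probes leaned the other way. Of the 1065 tested, limma called 374 higher and 239 lower at a Benjamini-Hochberg adjusted p below 0.05, and 452 were not called. The background is high, since 55.1% of all 13220 probes tested were called, 26.9% higher and 28.2% lower. The called share outside RefSeq was 57.6%, close to that background, and it split into 35.1% higher and 22.4% lower. Coding probes were called higher in 24.3% and lower in 31.4%. The remaining 2623 tested probes, which carry the identifiers that the selection left out other than NM_ and XM_, were called higher in 33.2% and lower in 18.9%, so the lean towards higher calls was shared with them and not particular to the probes outside RefSeq. The split depends on the scaling: with no scaling between arrays 116 were called higher and 531 lower, 17.9% of those called being higher, against 61.0% with it. Leaving out the percentile moved the median log2 difference of all probes tested from 0.08 to -0.88, so the directions given here are relative to the bulk of the array. The counts of higher and of lower calls both fell when any 1 of the arrays was left out, which leaves 1 array in a group.

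The filter on dim probes also bears on these counts, because a probe can pass it through the group where it is bright. On the 773 probes detected on every scan, 335 were called higher and 156 lower. With no filter, 2240 probes could be fitted, and 707 were called higher and 204 lower.

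Compared with coding probes at similar signal, the larger share of higher calls was present at every level of brightness. The tested probes outside RefSeq were split into 10 equal bins by their mean log2 signal over all arrays, and the coding share of each bin was weighted by their number. On this footing 35.1% were called higher against 23.0% of coding probes, and 22.4% were called lower against 29.8%. The median log2 difference, AP minus control, was 0.31 outside RefSeq, with quartiles of -0.39 and 0.92, and -0.03 in coding probes, with quartiles of -0.73 and 0.57. The size of change regardless of sign was alike, with medians of 0.70 and 0.69. Set against the remaining probes at similar signal in the same way, the contrast was small, at 35.1% against 33.6% higher, 22.4% against 19.6% lower, and a median of 0.31 against 0.29. In all 10 bins the probes outside RefSeq had the larger share of higher calls, the smaller share of lower calls and the higher median. In the dimmest bin 23.4% were called higher against 9.00% of coding probes, and 35.5% lower against 42.1%. The gap in higher calls was smallest in bins 2, 3 and 4, counted from the dimmest, at 22.6% against 15.9%, 26.2% against 19.9% and 29.2% against 22.9%. It was widest in bins 7, 8 and 9, at 39.6% against 23.5%, 43.9% against 23.5% and 43.4% against 23.8%. In the brightest bin the shares were 50.5% and 40.4%, and those called lower were 22.4% and 35.2%.

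Each pairing of a control with an AP array gave the same direction for the medians. The difference between the class medians of the log2 change was 0.24 for control 1 with AP 1, 0.33 for control 1 with AP 2, 0.39 for control 2 with AP 1 and 0.47 for control 2 with AP 2. Spot number bears on the comparison, since averaged spots go with a smaller standard error, at a median of 0.14 outside RefSeq against 0.17 in coding probes at similar signal. When only the first spot of every probe was used, 31.0% of 1044 tested probes were called higher against 21.9%, and 18.7% lower against 29.1%. The called share outside RefSeq was then 49.7%, below the 51.0% of coding probes. Many accessions come from one submission and may stand for related transcripts, so the comparison was repeated with 1 probe from each series of neighbouring accession numbers, 541 in all. Of these, 38.1% were called higher against 25.1% of coding probes, and the share called lower was below that of coding probes by 10.1 percentage points.

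Large changes leaned the same way against coding probes. A log2 difference above 2, more than 4-fold, was found in 95 of the 1065 tested (8.92%) in the higher direction and in 44 (4.13%) in the lower. The background over all probes was 3.97% and 5.80%, and over coding probes 3.55% and 6.93%. Coding probes at similar signal gave 3.70% higher and 6.94% lower by this measure. The remaining probes were not set apart by it, so the likeness to them given above is not shown for large changes. In steps of 0.5 on the log2 scale, the fullest step in both classes ran from 0 to 0.5, with 21.0% of the probes outside RefSeq and 20.5% of coding probes. Among the called probes, 39 of those higher were at background on every control scan and 78 of those lower were at background on every AP scan, so their folds are bounds. All of these passed the filter through the other group alone, and those beyond 4-fold are counted in the shares above. Shares of large changes among probes detected on every scan are not given here. Where a group was at background, its level was replaced by the lowest signal marked well above background on those scans, or by the probe's own signal if higher. This makes the fold a lower bound, for the scaling and background subtraction used here only. With such probes at their bound, 95 (8.92%) were more than 4-fold higher and 35 (3.29%) more than 4-fold lower, against 3.67% and 5.12% of coding probes at similar signal treated alike, and the median log2 difference outside RefSeq was 0.33, against 0.05 in coding probes at similar signal. Of the tested probes, 2 had a value on only 1 array of a group, and 1 of these was called.

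The largest rises belonged to accessions that were dark on the control arrays and bright on both arrays labelled AP. BC088254, a cDNA clone record, had log2 signals of -3.43 and -4.52 on control 1 and control 2 and of 4.01 and 4.00 on AP 1 and AP 2. It was at background in controls and thus at least 189-fold higher (limma adjusted p = 0.00124). BC107452 showed the same picture, at -3.28 and -4.33 against 3.80 and 3.84, and was at least 159-fold higher (adjusted p = 0.00124). AF220555 lay at -5.45 and -5.34 in controls and at 2.68 and 2.60 in AP, at least 83.0-fold higher (adjusted p = 6.03e-04). X60291 was at -1.98 and -3.38 in controls, above background on 1 control scan, and at 3.38 and 3.37 in AP. Its fitted fold was 66.4, with a log2 difference of 6.05 ± 0.52 (SE, 2 arrays per group; adjusted p = 0.00319). The next 6 were M87786, AF217587, BC088255, BC091252, M15402 and S64522, each at background in controls and with lower bounds of 38.9-fold to 58.4-fold. The control and AP arrays did not overlap in these 10 accessions, but they were picked for their size, and 9 of them passed the filter through the AP arrays alone and so had to differ. How many of all probes tested lacked overlap was not counted, here or below, while 55.1% of all probes tested were called. BC088254 and BC088255 carry adjacent accession numbers and BC accessions made up 4 of the 10. The lymphocyte marker genes of the RefSeq probes rose on the same arrays, as given above, and their part in these rises was not tested.

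The largest falls were of accessions that both control arrays showed bright and that were dim or at background on the arrays labelled AP. AY007691 had log2 signals of 3.89 and 3.96 on the control arrays and of -2.80 and -2.14 on the AP arrays, where no scan was above background, and was at least 76.4-fold lower (adjusted p = 8.99e-04). AF062402 lay at 3.60 and 3.62 in controls and at -3.99 and -3.23 in AP, at least 69.3-fold lower (adjusted p = 9.13e-04). BC098815 stayed above background on every scan, at 5.65 and 5.74 in controls and 0.66 and 0.81 in AP. Its fold was thus measured on both sides, at 31.3-fold lower with a log2 difference of -4.97 ± 0.11 (SE, 2 arrays per group; adjusted p = 6.03e-04). AF239157 was also measured on both sides, at 3.05 on both control arrays and -1.52 and -1.41 in AP, 22.9-fold lower. Control and AP arrays did not overlap for these 4, which were picked for their size, and AY007691 and AF062402 passed the filter through the control arrays alone and so had to differ. BC161881, S66184 and AF159100 likewise were at background in AP and at least 22.9-fold, 16.7-fold and 15.2-fold lower. They also passed the filter through the control arrays alone. BC085903, BC088229 and BC088327 were 16.6-fold, 14.4-fold and 13.4-fold lower, BC088229 with 1 AP scan above background. The summed adipocyte, erythroid and inflammation genes were lower on the same arrays, as given above, and so were the neutrophil, islet and duct sums. The part of any of these lists in the falls was not tested.

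The kinds of accession differed in detection and in the balance of calls. BC accessions were the most often detected of the main kinds, at 542 of 861 (63.0%), near the 62.2% of coding probes. Detection was 335 of 912 (36.7%) for other 2-letter accessions and 185 of 460 (40.2%) for 1-letter accessions. Over every probe of the kind, tested or not, the median log2 signal was -1.70 for BC, -3.57 for other 2-letter and -3.60 for 1-letter accessions. BC clones were thus brighter than the other main kinds.

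The balance of calls was more uneven in the 2-letter and 1-letter accessions than in the BC clones. BC accessions had 179 higher and 157 lower calls, which is 33.0% and 29.0%, against 23.8% and 31.1% of coding probes at similar signal. Their median log2 difference was 0.15. Other 2-letter accessions had 119 higher and 55 lower, 35.5% and 16.4%, against 21.8% and 28.7%, with a median of 0.42. The 1-letter accessions had 75 higher and 26 lower, 40.5% and 14.1%, against 22.5% and 28.9%, with a median of 0.55. By this order the share of higher calls was largest in the oldest style of accession, and 16.2% of its tested probes were more than 4-fold higher, against 3.82% of coding probes at similar signal. The difference between kinds was not tested, since probes are not replicates.

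Single prefixes varied more, and their counts are read against the 26.9% higher and 28.2% lower over all probes tested. Of the AJ accessions, submitted through the European archive, 27 of 132 were detected, and of the AM accessions from the same archive 15 of 72. Of the 15 AM probes tested, limma called 8 higher and 0 lower, also 0 lower at an unadjusted p below 0.05. Of these 8, 5 came from 1 series of neighbouring accession numbers, which may stand for related transcripts. Tested L, M and X accessions, 3 old prefixes, had 12 higher and 3 lower of 24, 14 and 4 of 28, and 14 and 2 of 29. The higher L calls included 3 from the series that starts at L07396 and 3 from the series that starts at L20986. S accessions, which NCBI staff entered from journal articles, were even at 10 higher and 10 lower of 32, near that background. DQ accessions, from direct submissions to GenBank, had 11 higher and 9 lower of 28. The 6 tentative consensus sequences gave 2 tested probes, of which TC585145 had log2 signals of 0.16 and 0.27 in controls and -0.28 and -0.18 in AP, a log2 difference of -0.44 ± 0.10 (SE; adjusted p = 0.0311). This call was lost when any 1 of the 4 arrays was left out, at adjusted p of 0.0786 to 0.122. Of 3 Ensembl transcripts 1 was tested, and ENSRNOT00000039569 lay at 4.57 and 4.77 in controls and at 5.59 and 5.78 in AP, a log2 difference of 1.02 ± 0.14 (SE; adjusted p = 0.00777), which was 0.06 without scaling between arrays and then not called. These 2 probes were among the 17 printed in 10 spots.

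Among the brightest probes of the array, a handful of BC clones were lower on the arrays labelled AP under each scaling tried. Of the 100 brightest probes tested, 11 lay outside RefSeq, and 6 of these were called higher and 5 lower. Of the 65 coding probes there, limma called 56 higher and 0 lower, also 0 at an unadjusted p below 0.05, with log2 differences from -0.22 to 2.64. The other 24 probes had 19 higher and 0 lower calls, with 1 lower at an unadjusted p below 0.05. The coding count depends on the scaling, with 15 higher and 4 lower after quantile normalization, 18 and 4 in the deposited values, and 0 and 6 with no scaling. The 5 accessions were called lower in each of these settings. BC158568 was the brightest, with log2 signals of 10.41 and 10.55 in controls and 10.07 and 10.14 in AP, a log2 difference of -0.38 ± 0.11 (SE; adjusted p = 0.0489), and it lost its call when any 1 array was left out (adjusted p of 0.0874 to 0.165). BC166798 lay at 9.69 and 9.75 against 8.26 and 8.16. BC161988 had 9.36 and 9.37 against 7.86 and 7.82. For BC158811 and BC166770 the differences were -1.34 and -1.33, so these 4 were 2.52-fold to 2.88-fold lower, with no overlap between groups, and kept their calls without any 1 array. Without scaling the differences were -1.33, -2.47, -2.48, -2.30 and -2.29 in the order BC158568, BC166798, BC161988, BC158811 and BC166770.

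The 6 higher accessions in this set lost their calls when arrays were left unscaled, and AF112256 alone kept its call after quantile normalization. AF375874 had log2 signals of 8.44 and 8.68 in controls and 9.46 and 9.56 in AP, a log2 difference of 0.95 ± 0.13 (SE), which was -0.01 without scaling. M57705, BC166564 and BC091321 were higher by 0.84, 0.88 and 0.83, and without scaling these became -0.11, -0.08 and -0.13, with BC091321 at -0.0025 after quantile normalization. AF112256 was higher by 1.27, and by 0.33 without scaling. It was marked well above background on 2 of 3 AP scans, where a scan with only outlier spots also counts as unmarked. Y17327 was higher by 0.77 and at -0.19 without scaling. Among the 1000 brightest probes tested, 62 lay outside RefSeq, 37 called higher and 10 lower, and 715 were coding, 351 higher and 180 lower.

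Neighbouring accession numbers mostly come from 1 submission, and some such series held calls in 1 direction only. A series was defined, after the values were seen, as accessions of 1 prefix whose numbers lay no more than 10 apart. There were 296 series of at least 2 probes, holding 1588 of the 2242, with 654 alone and the longest holding 66. Of the 89 series with at least 3 tested probes, 49 had calls in both directions, 6 had no call, 1 was higher throughout and 1 lower throughout. In 10 there were at least 3 higher calls and no lower one, the first of these included. Over 524 pairs of tested neighbours, 64 were both higher, 42 both lower and 88 of opposite sign. Single probes outside RefSeq were called higher in 35.1% and lower in 22.4%. The counts to be had from unrelated probes were not worked out, so neither pairs nor series show that neighbours moved together.

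The series that was higher throughout ran from AF217571 to AF217595, and 6 of its 16 probes were tested. All 6 were at background on every control scan. AF217587 lay at -4.42 and -4.04 in controls and 1.89 and 1.85 in AP, at least 48.6-fold higher. AF217593 lay at -4.78 and -5.30 against 1.06 and 1.02, at least 27.4-fold higher. AF217579, the least changed, lay at -3.22 and -5.36 against -1.13 and -1.26, at least 4.79-fold higher (adjusted p = 0.0387). No control array reached the AP arrays in any of these 3, and the spread between the controls was widest for AF217579. Such probes passed the filter through the AP arrays alone and so had to differ, and the rest of the series did not pass.

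The series from L07396 to L07410, with 4 of 10 probes tested, and from L20986 to L21005, with 4 of 12, held further rises. In the first, L07406 and L07407 were at background in controls and at least 17.0-fold and 17.6-fold higher. Both passed the filter through the AP arrays alone and so had to differ. L07408, above background on 1 control scan, was higher by 3.44 on the log2 scale. L07398, the bright member of the series, lay at 0.89 and 0.27 in controls and 0.90 and 1.29 in AP. Its nearest arrays were almost level without overlap, and it was not called (limma adjusted p = 0.202). In the second, L20990, L20992 and L20995 were higher by 3.40, 3.03 and 3.47, from levels between -2.33 and -1.19 in controls to levels between 1.21 and 1.87 in AP. Each of the 3 was clear of overlap between groups, but they were picked once values were known. In the AM series that starts at AM293738, 49 probes gave 6 tested, of which 5 were higher. AM293763 and AM293831 were at least 5.82-fold and 5.61-fold higher, from background in controls. These 2 passed the filter through the AP arrays alone and so had to differ. Within the series that starts at BC084694, 4 of 5 were higher, and BC084707 stood out at 0.00 and -0.05 in controls against 4.89 and 4.83 in AP. The only series of at least 3 tested that was lower throughout ran from BC097985 to BC098003, with 3 tested of 7. BC097985 lay at 2.15 and 2.18 in controls and -1.60 and -1.44 in AP, a log2 difference of -3.68 ± 0.11 (SE). BC097994 was lower by a log2 difference of -0.91, and BC097988 was at background in AP, which bounds it at 1.04-fold or more. BC097988 passed the filter through the control arrays alone. Probes to near-identical sequences can bind the same RNA, so members of a series may share signal, which was not tested.

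Probes near the threshold had small or unevenly measured changes. The 4 just called were AY724497 at -0.34, AJ605749 at -0.36, AY079168 at -0.54 and BC160851 at 0.48 on the log2 scale. The 4 just short of it were DQ266362 at 0.41, D26502 at 0.78, L20987 at 1.70 and U03630 at 1.05. L20987 lay at -2.42 and -3.73 in controls and at -1.33 and -1.42 in AP, so that the groups did not overlap while the control arrays lay 1.31 apart.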

How the data were processed

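Per the labels, RNA was hybridised to a 1-colour array and read with Agilent Feature Extraction 11.0.1.1, per the submitters' processing notes. The deposited scanner files give a processed intensity per spot, already background-subtracted per the file headers, with marks for outlier, saturated and well-above-background spots. The deposited value table gives normalized log2 values, used as an alternative. The genome build of the array design was not used for coordinates. Here spots of a probe were averaged without those marked as outliers, and log2 intensity was taken minus the scan's 75th percentile over non-control probes. Scans of 1 array (spot deviations correlated above 0.9 over spots above 200) were averaged. A probe was tested if well above background on at least 3 of 6 scans. limma 3.58.1 (lmFit, eBayes) in R 4.3.3 was fitted over all such probes, two-sided, with Benjamini-Hochberg adjustment and a threshold of 0.05. The fit was tested on simulated data with 200 of 13149 probes changed, in 10 runs. It recovered 0.3% of log2 changes of 1 and 51.2% of changes of 2, and 4.6% of its calls were false. In the data 55.1% of probes were called, so these rates do not carry over to them. Python 3.11.15 with pandas 2.3.3 made the summaries.

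Coding probes were compared in 10 bins of mean signal and weighted by the number of members. The accessions named were the 10 largest called changes in each direction, sized by the bound where a group was at background, the 10 with the highest mean signal, the 4 nearest the threshold on each side and the largest change per kind; accessions named from series of numbers, Y17327, and probes named from the 100 brightest were picked once values were known. The members, lists and comparisons were chosen with earlier results of these data known. Alternatives covered scaling, background correction, the deposited values, the filter, the moderation, scans as replicates, blocks for replicate number and scan session, single spots, the bins and leaving out each array. Precision is limited by there being 2 arrays per group.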

Additional observations from a re-analysis of the deposited data

How the results depend on the processing

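Against coding probes at similar signal, the larger share of higher calls and the smaller share of lower calls outside RefSeq kept their direction in each setting, at 5.60 to 15.2 and -10.9 to -4.00 percentage points; the values reported were 12.1 and -7.36. Against the remaining probes, neither outside RefSeq nor coding, the differences were 1.51 points for higher calls and 2.82 for lower calls, the latter reversed, with a median difference of 0.021. Without scaling, 116 were called higher and 531 lower, with differences of 5.60 and -10.9 points. With normexp background correction, fitted on median spot signals, 216 were called, 129 higher and 87 lower, with differences of 6.05 and -4.04. With no filter on dim probes 707 were higher, with differences of 7.80 and -4.15, and with detection asked on all scans 156 were lower, 773 probes being tested. The first spot alone gave 9.12 and -10.4, 1 probe per series gave -10.1 for lower calls, and bins set by control signal gave -4.00 and a median difference of 0.24. The first-spot, series and remaining-probe settings were chosen after seeing the data, as were some combinations of result and setting. Leaving out 1 array gave 410 to 478 calls, 258 to 324 higher and 150 to 180 lower, differences of 9.57 to 12.8 and -8.60 to -5.74 points, and a median difference of 0.26 to 0.46, highest without control 1; an arm left with 1 array is assumed to vary like the other. The positive-and-significant mark put detection at 69.7%. The causes of these shifts were not tested.

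Named accessions reversed in few settings. Quantile normalization turned BC091321 to -0.0025. Without scaling, AF375874 was at -0.010, M57705 at -0.11, BC166564 at -0.079, BC091321 at -0.13, BC160851 at -0.48, DQ266362 at -0.55 and D26502 at -0.18. With normexp, AY724497 was at 0.11 and AY079168 at 0.037. Normexp, run with an offset of 50, also gave smaller sizes for the largest changes. BC088254 was higher by 3.81 and AF220555 by 2.96 on the log2 scale, against 7.98 and 8.03 in the main fit. AY007691 was at -3.76, against -6.39. For the 22 accessions with the largest changes overall or in their kind, 346 of 356 values kept direction and call and 10, of 2 accessions, lost the call. With detection asked on all scans, only BC098815, AF239157, BC085903, BC088327, ENSRNOT00000039569 and TC585145 of the 22 were tested. For the 10 brightest, 143 of 169 values kept direction and call, and for the 8 near the threshold 62 of 134.

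Same-numbered arrays did not deviate together (r = -0.21 over 13149 probes, 2 pairs), so the numbers were not taken as pairing; with a replicate block 462 were called, 287 higher and 175 lower, and with the crossed pairing, added after seeing the data, 621. Taking 6 scans as separate replicates gave 808, with a difference in higher calls of 15.2 points. The planned comparison of accessions and coding probes of 1 gene was not run, because no identifier matched the gene table.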
